A study of Mus musculus with 12 samples.

Results

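Atf4, Ddit3, Trib3, Asns, Chac1, Hspa5, Xbp1, Herpud1, Ppp1r15a and Dnajb9 were followed across 12 arrays of mouse skeletal muscle RNA, as 10 genes of the endoplasmic reticulum (ER) stress and ATF4 responses. They were chosen with earlier results of these data known and taken by symbol from the platform annotation. All 10 were found among the 18193 genes with a probe set of their own. The 10 genes are read by 21 probe sets. Chac1, Ppp1r15a and Dnajb9 have 1 probe set each, and the other 7 genes have 2 to 4. The brightest probe set of each gene (highest mean over the 12 arrays) gave its main value. All 10 main probe sets lay above the filter on low signal, as did 20 of the 21 probe sets. The exception was Atf4 1439258_at, with signals between 3.61 and 12.6 on every array.

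When unfolded proteins build up in the ER, the sensors PERK, IRE1 and ATF6 start the unfolded protein response. PERK and other kinases phosphorylate the translation factor eIF2, which slows protein synthesis but favours translation of Atf4, whose protein turns on genes of amino acid supply and, under lasting stress, Ddit3 (CHOP), Trib3 and Chac1. IRE1 splices Xbp1 mRNA, and XBP1 and ATF6 turn on ER chaperones such as Hspa5 (BiP) and genes of ER-associated degradation such as Herpud1. Ppp1r15a (GADD34) closes the loop by bringing a phosphatase to eIF2. Much of this control acts on translation, splicing and protein cleavage, which these arrays do not read.

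The series compared muscle of mice with or without the Stat5a and Stat5b genes, each with or without growth hormone (GH), a hormone whose receptor activates STAT5. The 4 groups were wild type (WT), Stat5a/b knockout (KO), WT+GH and KO+GH, with 3 mice and 1 array per mouse in each. The series title names skeletal muscle, whereas the treatment label places the loss of the genes in blood cells. Age, sex, strain, the Cre driver, and the dose and duration of GH are not given in the sources used here.

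Stat5b 1422103_a_at read 2955, 2640 and 2866 in WT and 497, 372 and 415 in KO, and 1694, 1792 and 1896 in WT+GH and 333, 378 and 374 in KO+GH. The knockout labels therefore matched a lower Stat5b signal on every array, with no overlap. Stat5a 1421469_a_at was also lower in KO, with a log2 difference of -1.27 ± 0.208 (SE; adjusted p = 0.00483, limma) without GH. Skeletal muscle markers lay at or above the 99.8th percentile of all genes, each gene ranked by its brightest probe set. The medians of the neutrophil, B and plasma cell and hepatocyte lists lay between the 26.8th and the 32nd percentile. RNA of other cells was also present, with list medians at percentile 96.1 for fibroblasts, 86.5 for adipocytes, 70.5 for endothelium and 66.3 for macrophages. The deposited signals have a trimmed mean of 500 on each array. The GH arrays differed from the others in array measures: their poly-A control signals were 442 to 467 against 129 to 168, and their actin 3'/5' ratios were 0.887 to 1.01 against 0.805 to 0.864 (exact permutation test, two-sided, 6 against 6 arrays, p = 0.00216 for both, adjusted p = 0.00289 over 4 measures). In the titles, all mice with GH carry a number with an M before it, and all mice without GH a plain number. What this numbering stands for is not given in the sources used here. GH treatment, this numbering and how or when the arrays were labelled cannot be told apart. Within the GH arrays, the actin ratio was 0.962 to 1.01 in KO+GH and 0.887 to 0.932 in WT+GH (exact p = 0.1, the smallest that 3 against 3 allows). The ratio thus moved with GH and, among the GH arrays, with genotype. A call lost with this ratio as a covariate cannot tell a gene that follows the ratio from a fit with less precision. In bulk RNA, fewer cells of a type and less RNA per cell cannot be told apart.

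The promoters of the 3 genes that passed the test in a comparison, Chac1, Ppp1r15a and Ddit3, and of Hspa5 and Herpud1, which hold textbook ER stress elements, are shown here as 120 bases each (RefSeq, GRCm38.p6, on the strand of the gene). Capitals mark matches to the motifs searched, on both strands, in the window from 250 bases before to 50 after the annotated start. Chac1 lies at chr2:119350992-119351111 (+, 250 to 131 bases before the start). The others cover the 120 bases before the start: Ppp1r15a at chr7:45526269-45526388 (-), Ddit3 at chr10:127290673-127290792 (+), Hspa5 at chr2:34771970-34772089 (+) and Herpud1 at chr8:94386309-94386428 (+).
Chac1: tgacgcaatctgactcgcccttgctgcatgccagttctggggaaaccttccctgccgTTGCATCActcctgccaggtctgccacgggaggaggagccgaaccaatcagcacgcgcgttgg
Ppp1r15a: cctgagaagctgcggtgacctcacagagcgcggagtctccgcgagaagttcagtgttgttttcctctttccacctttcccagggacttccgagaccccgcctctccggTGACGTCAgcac
Ddit3: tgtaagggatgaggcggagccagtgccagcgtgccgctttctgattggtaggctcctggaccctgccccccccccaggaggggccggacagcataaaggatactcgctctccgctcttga
Hspa5: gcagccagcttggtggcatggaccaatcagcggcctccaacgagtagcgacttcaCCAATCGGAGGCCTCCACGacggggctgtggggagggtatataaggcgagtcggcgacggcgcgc
Herpud1: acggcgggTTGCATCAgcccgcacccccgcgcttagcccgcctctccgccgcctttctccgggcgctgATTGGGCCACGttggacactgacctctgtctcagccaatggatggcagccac

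The ATF4 composite core, searched as TGATGNAA, was found in 4 of the 10 promoters and in 3.97% of the 32851 promoters in the table. Its matches were TTGCATCA in Chac1, 193 bases before the start, and in Herpud1, 112 before it, both on the opposite strand, TGATGAAA in Asns, 23 before the start, and TTACATCA in Trib3, 15 after it. The ER stress response element, searched as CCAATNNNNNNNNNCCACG, was found in Hspa5, 65 bases before the start, and in 0.119% of all promoters. Its second form, ATTGGNCCACG, was found in Herpud1, 52 bases before the start, and in 0.0365% of all promoters. The cyclic AMP response element TGACGTCA was found in Ppp1r15a, 12 bases before the start, and in 1.79% of all promoters. The STAT motif TTCNNNGAA was in none of the 10 windows and in 8.3% of all promoters. No match overlapped another, and a match or its absence in these windows is a description of the letters alone.

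Chac1 was lower in KO than in WT both with and without GH, at about the same size, but neither call was firm. Of 12 fits that each left out 1 array, 2 kept the call without GH and 6 the call with GH. Over those fits the log2 difference was -1.23 to -0.73 without GH and -0.912 to -0.829 with GH. The mean of both differences, added after the data were seen, kept its call in all 12 and lost it with the actin ratio as a covariate. Ppp1r15a was higher in KO+GH than in WT+GH, and Ddit3 was lower in WT+GH than in WT. Atf4, Trib3, Asns, Hspa5, Xbp1, Herpud1 and Dnajb9 did not pass the test in any of the 4 comparisons on their main probe sets.

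**Figure D1:**
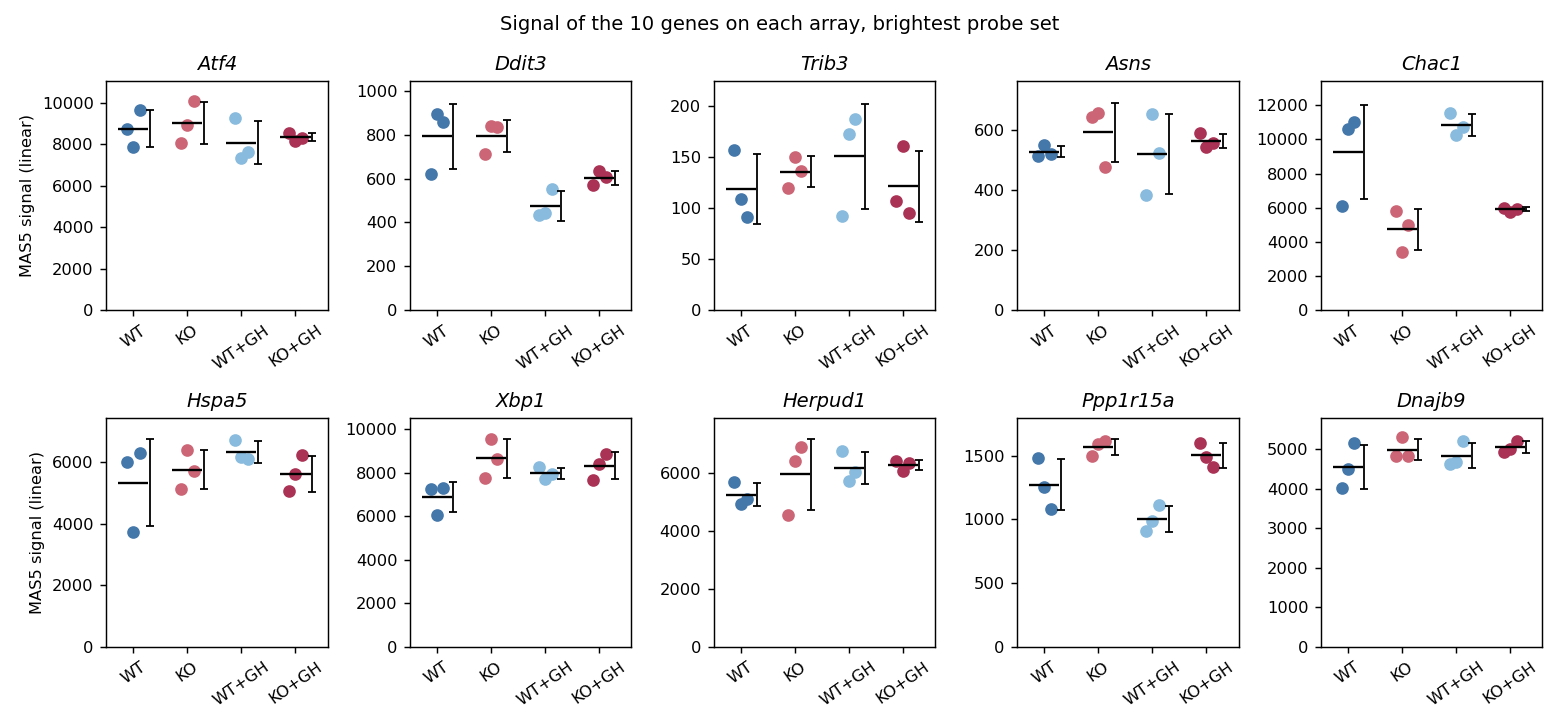
Signal of the brightest probe set of each of the 10 genes on each array (MAS5 signal, linear axis from 0), by group. Points are arrays, lines group means and bars 1 SD (n = 3 mice per group); Chac1 lies at 5775 to 5996 in KO+GH and at 10282 to 11543 in WT+GH, and Ddit3 lies at 433 to 552 in WT+GH.

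The first comparison set KO against WT without added GH. Of the 10 genes, 0 were higher and 1, Chac1, was lower at an adjusted p under 0.05 (limma, Benjamini-Hochberg over 12654 genes), against 0.774% of all genes tested called higher and 0.68% called lower. Groups of 3 did not overlap for 3 of the 10 genes, Xbp1 and Ppp1r15a higher and Chac1 lower, against 13.2% of all genes. The median difference of the 10 genes was 0.14 on the log2 scale, beside -0.00284 over all genes. Of the 10 differences, 9 were positive here, 7 in KO+GH against WT+GH, 6 for GH in WT and 3 for GH in KO. An unadjusted p under 0.05 was reached by 3 of the 10. The share of all genes with a positive difference or such a p was not worked out. These counts, and the counts of unadjusted p given below, therefore have no background beside them.

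Chac1, an enzyme that breaks down glutathione and a target of ATF4 and CHOP, read 6087, 10640 and 11030 in WT and 5794, 3381 and 4996 in KO. WT replicate 1 lay close to the knockout arrays, while the other WT arrays lay well above them, and the groups did not overlap. The KO level was 0.517-fold the WT level (95% CI 0.376 to 0.711), a log2 difference of -0.95 ± 0.212 (SE, adjusted p = 0.0486, limma). This call sat at the threshold: of the 12 fits that each left out 1 array, 2 kept it, those without WT replicate 1 (-1.23, adjusted p = 0.00131) and without KO replicate 1 (-1.12, adjusted p = 0.0195). Without any of the other 10 arrays, WT replicates 2 and 3, KO replicates 2 and 3 and each of the GH arrays, the adjusted p was 0.072 to 0.151, and with the 6 arrays without GH alone it was 0.344. A pseudocount of 100, median centring and plain eBayes also ended it (0.0516, 0.065 and 0.115).

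Xbp1, the transcription factor of the IRE1 arm, read 7247, 6073 and 7311 in WT and 7768, 9571 and 8630 in KO on its brightest probe set. Every KO array was above every WT array, but the difference, 0.33 ± 0.0947 on the log2 scale, did not pass the test (adjusted p = 0.119, limma). Ppp1r15a read 1485, 1254 and 1082 in WT and 1494, 1589 and 1613 in KO. The groups were separated by less than 10 signal units, between WT replicate 1 and KO replicate 1, and the log2 difference was 0.30 ± 0.112 (adjusted p = 0.269). The other 7 genes differed by 0.02 to 0.18 on the log2 scale, all with overlapping groups.

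The same genotype comparison was made in the GH-treated mice. Of the 10 genes, 1 was higher, Ppp1r15a, against 2.42% of all genes tested, and 1 was lower, Chac1, against 2.11%. Groups did not overlap for 3 of the 10, Ddit3 and Ppp1r15a higher and Chac1 lower, against 30% of all genes, so that a lack of overlap was common in this comparison. The median difference was 0.06 on the log2 scale for the 10 genes and -0.02 over all genes.

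Chac1 read 11543, 10282 and 10748 in WT+GH and 5996, 5775 and 5949 in KO+GH. The arrays within each group were close together here, and the lowest WT+GH array stood far above the highest KO+GH array. The KO+GH level was 0.546-fold the WT+GH level (95% CI 0.397 to 0.751; log2 difference -0.87 ± 0.212, adjusted p = 0.0336, limma). The SD of Chac1 was 637 in WT+GH and 117 in KO+GH, against 2748 in WT and 1230 in KO, and all 4 groups share 1 estimate of the spread. With the 6 GH arrays alone the adjusted p was 3e-06. With all groups, leaving out any 1 of the 6 GH arrays moved it to between 0.0796 and 0.129. The actin ratio moved with genotype in these arrays. With it as a covariate the log2 difference was -0.43 with a larger SE of 0.306 (adjusted p = 0.693). The genes called in this comparison over the whole array then went from 573 to 121. Plain eBayes also ended the Chac1 call (0.069).

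Ppp1r15a, the stress-induced partner of protein phosphatase 1 that reverses eIF2 phosphorylation, read 909, 986 and 1115 in WT+GH and 1603, 1488 and 1412 in KO+GH. All KO+GH arrays were above all WT+GH arrays, and they lay near the untreated KO arrays (1494 to 1613). The ratio was 1.49 (95% CI 1.26 to 1.75; log2 difference 0.57 ± 0.112, adjusted p = 0.00586, limma). The call held without each of the 12 arrays in turn (adjusted p at most 0.0419) and was lost with the actin ratio as a covariate (log2 difference 0.35, adjusted p = 0.518).

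Ddit3, the gene of the stress-induced factor CHOP, read 433, 441 and 552 in WT+GH and 569, 635 and 607 in KO+GH. The KO+GH arrays were all higher, and the log2 difference of 0.34 ± 0.138 did not pass the test (adjusted p = 0.225). The remaining 7 genes differed by -0.24 to 0.14 on the log2 scale with overlapping groups.

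Averaged over both genotype comparisons, an average added after the data were seen, Chac1 was lower by a log2 difference of -0.91 ± 0.15 (adjusted p = 0.00256) and Ppp1r15a was higher by 0.44 ± 0.0789 (adjusted p = 0.00296, limma). That is 1 gene lower and 1 higher of 10, against 2.47% and 2.88% of all genes tested. Both calls held without each array in turn (adjusted p at most 0.0104 and 0.0129). With the actin ratio as a covariate the adjusted p was 0.129 for Chac1 and 0.195 for Ppp1r15a.

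**Figure D2:**
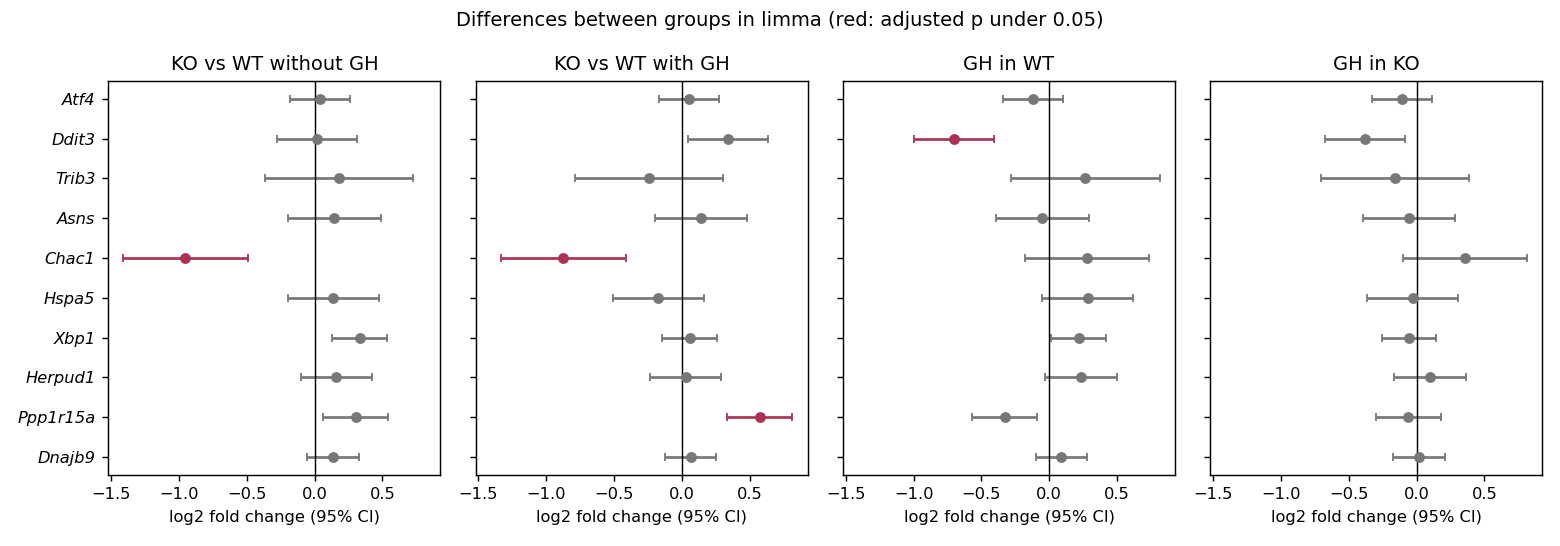
Differences between groups for the 10 genes (log2 fold change with 95% confidence interval, limma on 12 arrays) in the 4 comparisons, with red for adjusted p under 0.05. Chac1 is at -0.95 and -0.87 in the genotype comparisons, Ppp1r15a is at 0.57 with GH, and Ddit3 is at -0.70 for GH in WT.

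The GH comparisons set the arrays with GH against those without it, in WT and in KO. In WT, 0 of the 10 genes were higher, against 7.33% of all genes, and 1, Ddit3, was lower, against 11.8%; 3 of the 10 had an unadjusted p under 0.05. In KO, 0 of 10 were higher and 0 lower by limma, against 8.93% and 15.4% of all genes, and 1 of the 10 had an unadjusted p under 0.05. Groups did not overlap for 3 of the 10 genes in WT, Xbp1 and Herpud1 higher and Ddit3 lower, and for 1 in KO, Ddit3 lower, against 34.3% and 44.4% of all genes. Each GH comparison shares its 6 arrays with the genotype comparisons above.

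Ddit3 read 622, 896 and 861 in WT and 433, 441 and 552 in WT+GH. Every GH array was below every WT array, and the gap was narrowest at WT replicate 1. The WT+GH level was 0.616-fold the WT level (95% CI 0.502 to 0.755; log2 difference -0.70 ± 0.138, adjusted p = 0.00268, limma). In KO it went from 711, 842 and 834 to 569, 635 and 607. Those groups did not overlap either, but the log2 difference of -0.38 ± 0.138 did not pass the test (adjusted p = 0.0562), and it passed under 7 of the 25 alternatives. The 2 GH differences were not shown to differ from each other (interaction 0.32 ± 0.196, adjusted p = 0.621).

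The mean of both GH differences, also added after the data were seen, was -0.54 ± 0.0978 for Ddit3 (adjusted p = 0.000596, limma), 1 gene lower and 0 higher of 10, against 23.6% and 13.3% of all genes. The WT call was kept without each array in turn (adjusted p at most 0.0155). It was lost with the mean of both Ddit3 probe sets (adjusted p = 0.166), where the log2 difference was -0.52, and with the actin ratio as a covariate, where it was -0.73 with a larger SE of 0.234 (adjusted p = 0.0993). That covariate took the calls over all genes from 2416 to 459. The dimmer probe set, Ddit3 1443897_at, read 18.9, 130 and 113 in WT and 74.1, 88.2 and 15.5 in WT+GH, so that 1 array in each group was far below the rest, and its log2 difference was -0.35 ± 0.438 (adjusted p = 0.625).

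Macrophage markers were also lower with GH: 3 of 7 passed in WT and 5 of 7 in KO, against 11.8% and 15.4% of all genes called lower, and their summed signal was 8845 to 15000 in WT, 8412 to 11920 in KO, 6410 to 6664 in WT+GH and 6488 to 6529 in KO+GH. Of 5 adipocyte markers tested, 3 were lower with GH in each genotype, and of 6 endothelial markers 3 were lower and 1 higher in each. Of 7 fibroblast markers 2 were lower in each genotype, and of 10 muscle markers 0 were lower in WT and 8 in KO. Other markers went up: of 3 neutrophil markers tested 1 was higher in WT and 0 in KO. Of 2 hepatocyte markers 1 was higher in WT and 0 in KO, against 7.33% and 8.93% of all genes called higher. In these 2 lists 0 were lower, and of 3 B and plasma cell markers 0 passed by limma. The part of these markers in the Ddit3 difference was not tested. Centring each array on its median in place of the authors' scaling moved the median GH difference of all genes from -0.06 to -0.24 in both genotypes. The share of higher genes among those called then went from 38.4% to 11.1% in WT and from 36.7% to 13.4% in KO. That centring shifts all genes of a comparison by the same amount, so the distance of Ddit3 from the all-gene median did not change. Ddit3 was then at -0.89 (adjusted p = 0.000441, limma) in WT and -0.56 (0.00681) in KO.

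Ppp1r15a read 1485, 1254 and 1082 in WT and 909, 986 and 1115 in WT+GH. The groups overlapped at WT replicate 3 and WT+GH replicate 3, and the log2 difference was -0.33 ± 0.112 (adjusted p = 0.0512, limma), which passed under 4 of the 25 alternatives. In KO its GH difference was -0.06 ± 0.112 (adjusted p = 0.741). Chac1 differed with GH by 0.28 ± 0.212 in WT and 0.36 ± 0.212 in KO (adjusted p = 0.402 and 0.249). Of the 10 genes, 0 passed the test of the interaction of genotype and GH by limma in either direction, against 0.624% of all genes higher and 0.308% lower, and 0 of 10 had an unadjusted p under 0.05.

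Atf4, the factor at the centre of the integrated stress response, gave 8726, 7885 and 9644 in WT, 8048, 8945 and 10077 in KO, 9243, 7354 and 7624 in WT+GH and 8541, 8148 and 8314 in KO+GH. All groups overlapped on this probe set, and its differences in the 4 comparisons were between -0.12 and 0.05 on the log2 scale, with 95% intervals reaching from -0.34 at the lowest to 0.27 at the highest. Trib3, a pseudokinase induced by ATF4 and CHOP, gave 157, 109 and 91.1 in WT, 120, 151 and 137 in KO, 92.1, 173 and 188 in WT+GH and 107, 162 and 95.4 in KO+GH. It had the largest standard error of the 10 genes, 0.256, and all groups overlapped. For GH in WT its log2 difference was 0.27 with limits of -0.28 and 0.81, so that a change of moderate size was not detectable with 3 arrays per group. Asns, the asparagine synthetase that ATF4 induces when amino acids run short, gave 516, 551 and 521 in WT, 644, 658 and 479 in KO, 384, 653 and 525 in WT+GH and 592, 544 and 559 in KO+GH. All 4 Asns differences lay between -0.06 and 0.14 on the log2 scale (adjusted p at least 0.735).

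Hspa5, the main ER chaperone BiP, gave 6007, 3728 and 6296 in WT, 5145, 6410 and 5712 in KO, 6741, 6186 and 6100 in WT+GH and 5059, 5619 and 6233 in KO+GH. WT replicate 2 was the lowest of the 12 arrays, and all groups overlapped. Its largest difference in size was 0.28 ± 0.157 on the log2 scale for GH in WT (adjusted p = 0.232, limma). Dnajb9, a BiP co-chaperone of the XBP1 programme, ranged from 4026 to 5297 over all 12 arrays, with 4 differences of 0.02 to 0.14 on the log2 scale. Herpud1, a membrane protein of ER-associated degradation, gave 5693, 4927 and 5118 in WT and 6773, 5719 and 6041 in WT+GH. Those groups were separated by a narrow gap, and the log2 difference of 0.23 ± 0.124 did not pass the test (adjusted p = 0.208).

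Probe sets of the same gene differed in what they showed for GH, most of all for Atf4 and Xbp1. Atf4 1438992_x_at gave 648, 781 and 580 in WT, 464, 474 and 478 in KO, 489, 963 and 970 in WT+GH and 1198, 1248 and 1095 in KO+GH. The KO arrays were the lowest group on this probe set and the KO+GH arrays the highest, without overlap between them. When each probe set was fitted on its own, its GH difference in KO was 1.28 ± 0.199 on the log2 scale (adjusted p = 0.000381, limma), whereas the brighter Atf4 1448135_at was at -0.11. In the platform's naming, the ending _x_at marks a probe set whose probes may also match other transcripts. Its interaction of 1.07 ± 0.281 did not pass the test (adjusted p = 0.131). With the mean of the Atf4 probe sets as the gene's value, GH in KO was at 0.40 (adjusted p = 0.00778), and with median centring and the brightest probe set it was at -0.29 (0.0483), so that the sign for Atf4 turned with the choice.

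Xbp1 1420011_s_at gave 1758, 1560 and 1711 in WT and 2176, 2147 and 2340 in WT+GH, and 1683, 2123 and 1737 in KO and 2671, 2769 and 2541 in KO+GH. Both pairs of groups were apart, with GH higher by 0.40 ± 0.095 in WT (adjusted p = 0.00831) and 0.53 ± 0.095 in KO (adjusted p = 0.00106, limma). The 3 other Xbp1 probe sets did not pass, and in KO the brightest was at -0.06. With the mean of all 4 Xbp1 probe sets, GH in WT was at 0.33 (adjusted p = 0.0296). Herpud1 1448185_at was higher with GH in KO, by 0.32 ± 0.106 on the log2 scale (adjusted p = 0.0415), from 3706, 5040 and 4807 to 5377, 5712 and 5665. Which part of each transcript these probe sets read, and whether they tell spliced from unspliced Xbp1, was not tested.

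**Figure D3:**
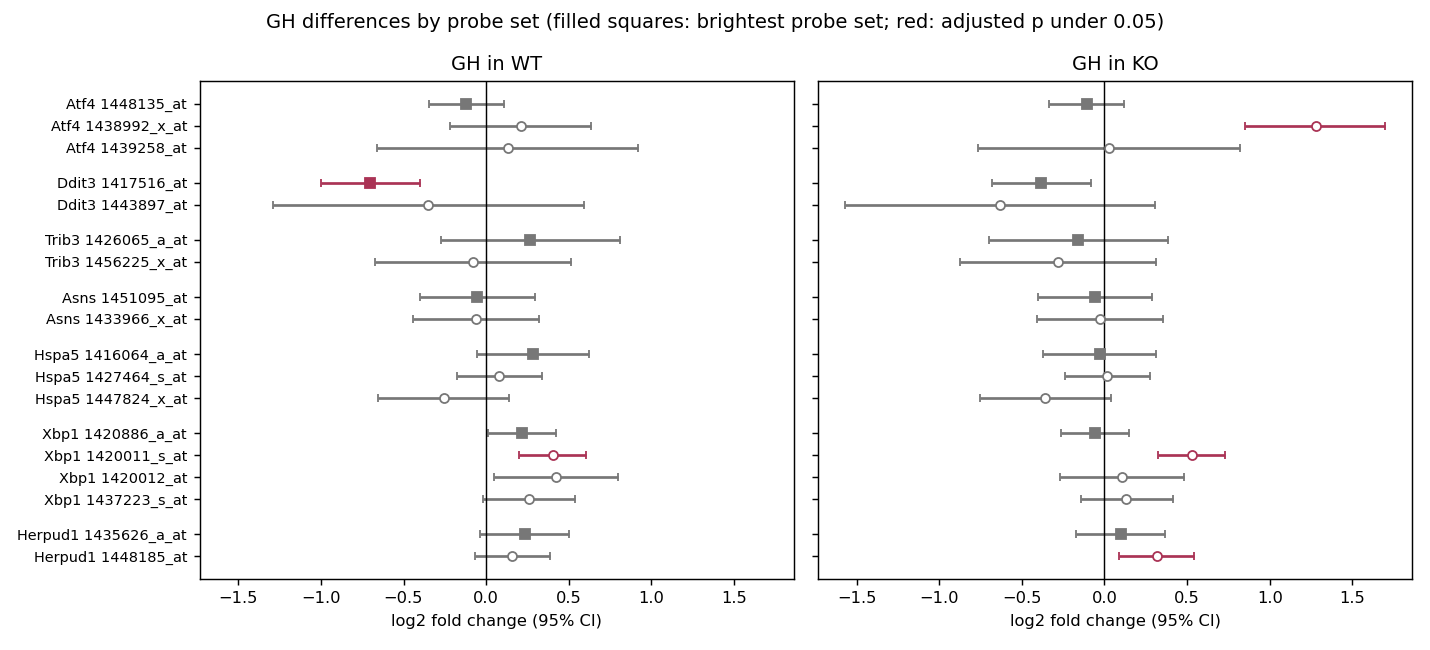
GH differences (log2 fold change with 95% confidence interval, limma with each probe set fitted on its own) in WT and KO for the 7 genes with more than 1 probe set, filled squares being the brightest. Atf4 1438992_x_at is at 1.28 in KO while the brightest Atf4 probe set is at -0.11, and Xbp1 1420011_s_at is at 0.40 in WT and 0.53 in KO.

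Around the 10 genes, 10 lists of other genes of the pathway held 131 genes, of which 118 were tested. For KO against WT without GH, 1 was higher and 2 were lower, against 0.774% and 0.68% of all genes, and with GH 6 were higher and 5 lower, against 2.42% and 2.11%. For GH in WT, 13 were higher and 13 lower, against 7.33% and 11.8%, and for GH in KO 22 were higher and 11 lower, against 8.93% and 15.4%. The median differences over the 118 genes were -0.01, 0.01, -0.01 and -0.05 on the log2 scale in that order, beside -0.00284, -0.02, -0.06 and -0.06 over all genes.

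Casp12, the caspase of the ER membrane, had the smallest adjusted p of the list genes for genotype without GH. It gave 882, 818 and 967 in WT, 249, 192 and 318 in KO, 718, 625 and 682 in WT+GH and 235, 268 and 300 in KO+GH. Every knockout array was far below every wild-type array, and the log2 differences were -1.74 ± 0.151 (adjusted p = 1.57e-05) and -1.26 ± 0.151 (adjusted p = 8.97e-05, limma). Bcl2l11, which encodes the cell death protein BIM, was higher in KO+GH than in WT+GH by 1.46 ± 0.165 (adjusted p = 5.66e-05). Its signals of 1397, 1044 and 1151 in KO+GH stood above those of every other array, the next being 686 in KO. Both calls held under each of the 25 alternatives tried.

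Among the factors around ATF4, 2 of 10 were higher and 1 lower in KO+GH against WT+GH, beside 2.42% and 2.11% of all genes tested. Without GH 0 passed by limma (3 with an unadjusted p under 0.05), beside 0.774% higher and 0.68% lower of all genes. There Ddit4 was at -0.81 (adjusted p = 0.0602) and Nfe2l2 at 0.25 (0.266). Ddit4, an inhibitor of mTORC1 signalling, was lower in KO+GH, with a log2 difference of -1.69 ± 0.193 (adjusted p = 0.000101). Atf3, a partner of ATF4 induced by stress, gave 652, 651 and 680 in WT+GH and 3397, 3505 and 3323 in KO+GH. Those groups were far apart, and the log2 difference was 2.32 ± 0.401 (adjusted p = 0.00717, limma), lost with the actin ratio as a covariate (0.402). Nfe2l2, the factor of the antioxidant response, was higher by 0.82 ± 0.0921 (adjusted p = 5.42e-05), lost with the mean of its probe sets (0.164).

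In KO+GH against WT+GH, the ATF4-linked amino acid enzymes had a median log2 difference of -0.27 and the transporters one of 0.48. Over all genes it was -0.02. Without GH the medians were -0.10, -0.00316 and -0.00284 in that order. Whether either list moved as a group was not tested. Gpt2, an alanine aminotransferase of mitochondria, gave 4606, 3513 and 4782 in WT and 3057, 2587 and 2408 in KO, and 8446, 8060 and 8084 in WT+GH and 5329, 5503 and 5389 in KO+GH. Of the 10 enzymes of its list, 1 was lower without GH and 2 with GH, beside 0.68% and 2.11% of all genes tested. Gpt2 was lower in KO, at -0.67 ± 0.109 without GH (adjusted p = 0.00455) and -0.60 ± 0.109 with GH (adjusted p = 0.00351, limma). The call without GH was lost when _x_at and _s_at probe sets were left out (0.413) and with the 6 arrays alone (0.107). The call with GH was lost with the actin ratio as a covariate (0.179). Aldh18a1, the other enzyme, which serves proline synthesis, was at -0.74 (adjusted p = 0.0212) and lost the call without single arrays.

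Slc38a2, an amino acid transporter that ATF4 induces, gave 4182, 3706 and 4263 in WT, 2675, 3586 and 3228 in KO, 3856, 4054 and 4189 in WT+GH and 7278, 7001 and 7324 in KO+GH. The KO+GH arrays stood above all others while the KO arrays were the lowest, and the interaction was 1.19 ± 0.136 on the log2 scale (adjusted p = 0.000226, limma). It was 1 of 7 transporters higher in KO+GH against WT+GH (0.83 ± 0.0962, adjusted p = 6.51e-05, limma), beside 2.42% of all genes tested. With the actin ratio as a covariate its adjusted p was 0.0608. Bcl2l11 was the other list gene with an interaction, of 1.36 ± 0.233 (adjusted p = 0.00736, limma). Both interaction calls were lost with the mean of all probe sets (0.272 for Slc38a2 and 0.06 for Bcl2l11). That of Bcl2l11 was also lost with the actin ratio as a covariate (0.172). No other gene of the 118 passed the interaction test.

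The remaining lists showed few genotype calls, as did all genes tested (0.774% higher and 0.68% lower without GH, 2.42% and 2.11% with GH). No UPR sensor or eIF2 kinase (0 of 10), aminoacyl-tRNA synthetase (0 of 19), ER chaperone (0 of 19) or ER-associated degradation gene (0 of 17) passed by limma with or without GH. An unadjusted p under 0.05 was reached by 0, 3, 1 and 1 of them without GH and by 2, 2, 2 and 3 with GH, in that order. The nearest of these was the eIF2 kinase gene Eif2ak4, at -0.86 ± 0.243 with GH (adjusted p = 0.0588). Of 4 stress-secreted factors and tribbles genes tested, Trib2 (0.62, adjusted p = 0.00215) and Trib1 (0.60, adjusted p = 0.0487) were higher in KO+GH. Trib2 lost the call when _x_at and _s_at probe sets were left out (0.961) and Trib1 without single arrays. Of 16 translocation and export genes, Spcs2 was higher without GH (0.54, adjusted p = 0.00817; 0.148 with the 6 arrays alone) and Sec62 was lower with GH (-0.26, adjusted p = 0.0423), a call lost without single arrays.

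More of the list genes were called for GH than for genotype, as was the case over all genes. Ddit4 gave 918, 1418 and 1383 in WT and 16889, 14232 and 15771 in WT+GH, a log2 difference of 3.65 ± 0.193 (adjusted p = 7.24e-08, limma), and was higher in KO by 2.78 ± 0.193 (adjusted p = 3.54e-07). Cebpb, a C/EBP factor that pairs with ATF4, was higher by 0.67 in WT (adjusted p = 0.000243) and 1.02 in KO (adjusted p = 3.77e-06). These were the 2 genes whose GH calls in both genotypes held under each of the 25 alternatives. Gpt2 (0.94), Slc3a2 (0.58), Stc2 (0.82), Vars (0.82) and Srprb (-0.77) also kept their WT calls under each alternative. Slc3a2 is the shared chain of amino acid exchangers, Stc2 a secreted glycoprotein of the stress response, Vars the valyl-tRNA synthetase and Srprb a subunit of the signal recognition particle receptor.

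Of the 24 list genes named for GH in WT, 12 others kept the call without each array but lost it under another setting, and 5 lost it without an array. The 12 were Aars (0.39), Dnajc10 (0.36), Mcl1 (0.42) and Selenos (0.42) above zero and Atf5 (-0.76), Edem1 (-0.68), Pdia3 (-0.52), Pdia4 (-0.83), Rnf139 (-0.44), Sec24d (-0.52), Sec62 (-0.28) and Slc1a5 (-0.54) below it. The protein disulphide isomerases Pdia3 and Pdia4 and the degradation factor Edem1 are textbook targets of the ER stress factors. The 5 were Ssr3 (0.24), Derl2 (-0.43), Dnajc3 (-0.39), Ppp1r15b (-0.35) and Psat1 (-0.52), with adjusted p-values up to 0.171 without an array. By list, the ER chaperones gave 1 higher and 3 lower of 19 and the degradation genes 3 higher and 3 lower of 17, against 7.33% and 11.8% of all genes.

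Of the 29 list genes named for GH in KO, 27 lost the call with the actin ratio as a covariate, the ratio that stood highest in KO+GH. That ratio did not overlap between KO and KO+GH, and standard errors grew with it, for Ddit3 from 0.138 to 0.369. A call lost this way therefore says little about a single gene. The same covariate took the calls over all genes from 3078 to 91 in this comparison. Of those 27, 15 kept it without each array in turn: Slc38a2 (1.19), Atf3 (2.08), Bcl2l11 (1.22), Gpt2 (1.01), Stc2 (1.05), Slc7a5 (0.86), Mcl1 (0.71), Slc3a2 (0.55), Ubxn4 (0.50), Aars (0.49), Eif4ebp1 (0.48) and Vars (0.47) above zero and Slc1a5 (-0.91), Rnf139 (-0.64) and Sec62 (-0.49) below it. The other 12, Hsp90b1, Dnajc10, Os9, Trib2, Wars, Bak1, Psat1, Eif2ak3, Farsa, Derl2, Spcs2 and Ssr1, lost it without an array (adjusted p up to 0.161). Factors around ATF4 gave 6 higher and 1 lower of 10, transporters 3 higher and 1 lower of 7, chaperones 2 higher and 0 lower of 19, degradation genes 2 higher and 2 lower of 17 and translocation genes 0 higher and 3 lower of 16, against 8.93% higher and 15.4% lower of all genes.

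**Figure D4:**
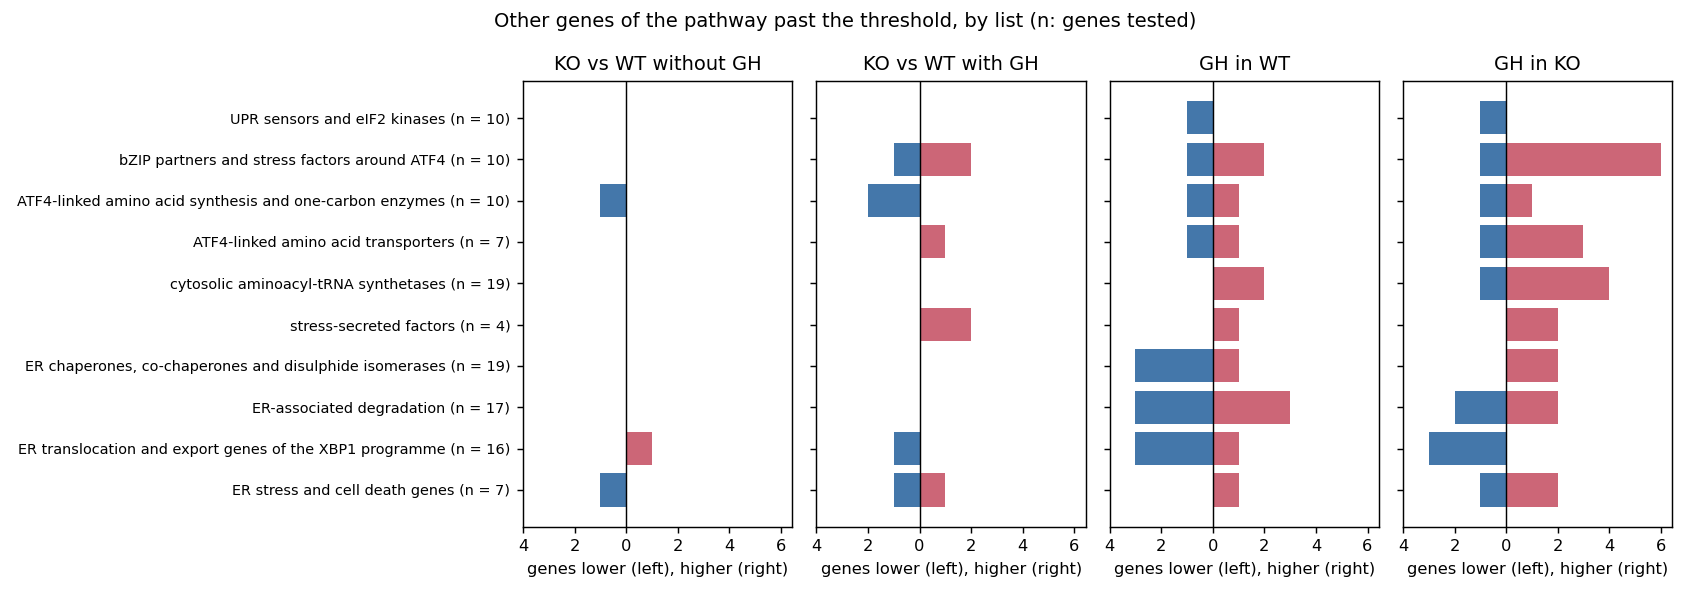
Number of genes of each pathway list past adjusted p under 0.05, lower to the left and higher to the right, in the 4 comparisons (n is the number tested). For GH in KO, the factors around ATF4 have 6 higher and 1 lower of 10, and the ER chaperones 2 higher and 0 lower of 19. Of all genes tested, 8.93% were called higher and 15.4% lower in that comparison.

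The genes most like Atf4, Ddit3 and Hspa5 in pattern were found by the root mean square (RMS) difference between gene-centred log2 values over the 12 arrays, among 12653 other genes. For Ddit3, whose own RMS deviation was 0.332, they were Acbd6 (0.107), Tspan15 (0.129) and Slc35a1 (0.139). Acbd6 averaged 1529 in WT, 1645 in KO, 937 in WT+GH and 1236 in KO+GH, the same order as Ddit3 for the GH groups. For Atf4, whose own deviation of 0.131 was small, they were Tmem185a (0.0638), Fkbp4 (0.0694) and Polr2c (0.0713). For Hspa5 they were Tmem69 (0.0970), Vps54 (0.128) and Lpin1 (0.133), against an own deviation of 0.219. For Chac1, added after its values were seen, they were Atp13a5 (0.167), Traf3ip2 (0.226) and Slc2a3 (0.239), against 0.548. Atp13a5 averaged 106.5 in WT, 41.85 in KO, 144.6 in WT+GH and 59.23 in KO+GH. Traf3ip2 averaged 468 in WT, 271 in KO, 584 in WT+GH and 324 in KO+GH. All these genes were picked for likeness over the same 12 arrays, so a shared order of groups follows from the selection.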

How the data were processed

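RNA from muscle of 12 mice was hybridised to 1 Affymetrix mouse array each. The deposited values are linear intensity signals made by the authors with MAS5, per the submitters' processing notes; its version is not given in the sources used here. Arrays have no read depth, and their number, 3 per group, limits the precision. Of 45101 probe sets, 34945 had 1 gene symbol in GEO's platform annotation, 932 several and 9160 none; 64 were controls, and 162 symbols could not be updated and were kept. Signals were tested as log2(signal + 25), which understates changes of dim genes. One probe set per gene, the brightest, was used, and 12654 of 18193 genes were tested, the filter being the 40th percentile of signal over all probe sets, with limma 3.58.1 in R 4.3.3 (4 group means, 8 residual degrees of freedom, eBayes with trend and robust, Benjamini-Hochberg over all genes); the steps were tested on simulated data. Array measures were compared by exact permutation. The 10 genes, the lists and the markers were chosen with earlier results of these data known. All 10 genes are named; of each list, up to 4 genes with the smallest adjusted p under 0.05 in a comparison are named, otherwise up to 2 by smallest p. Pseudocount, scaling, filter, probe set choice, eBayes options, array weights, the arrays in the fit, an actin covariate and each array left out were tried. The mean genotype and GH effects and single probe set fits were added after seeing the data.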

Additional observations from a re-analysis of the deposited data

Results flagged for a closer look

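Slc38a2 was flagged because its genotype difference depended on GH, by a test of that dependence. It was at -0.36 without GH and 0.83 with GH on the log2 scale, an interaction of 1.19 (adjusted p = 0.000226, limma), and this call was lost with the mean of its probe sets (adjusted p = 0.272). Bcl2l11 was flagged by the same test, with an interaction of 1.36 (adjusted p = 0.00736), lost with the mean of its probe sets (0.06) and with the actin ratio as a covariate (0.172).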

How the results depend on the processing

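No paired analysis was possible because the titles give each mouse a number of its own and no number is shared between groups. Counts of the 10 genes called were 1 lower for KO against WT without GH and became 0 with a pseudocount of 100, median centring, eBayes without trend and robust, and the 6 arrays alone (0 to 1 without single arrays). For KO against WT with GH, 1 higher became 0 with the actin covariate, and 1 lower became 0 with that covariate and with plain eBayes (0 to 1 without single arrays). For GH in WT, 0 higher became 1 with probe sets averaged; 1 lower became 3 with median centring, 2 with the filter at the 60th percentile, and 0 with probe sets averaged or the actin covariate (1 to 2 without single arrays). For GH in KO, 0 higher became 1 with array weights and with each gene's probe sets averaged; 0 lower became 2 with median centring and 1 with the filter at the 60th percentile, array weights, the 6 arrays alone, and WT replicate 1 and KO replicate 3 left out (0 to 1 without single arrays). Over all 12654 genes tested, median centring took the lower calls from 1489 to 3939 for GH in WT. It took them from 1948 to 4173 for GH in KO and from 2986 to 5749 for the mean GH effect. The actin covariate took all calls from 2416 to 459 for GH in WT and from 3078 to 91 for GH in KO. For KO against WT with GH it took them from 573 to 121. For the mean genotype effect, 1 higher became 2 with array weights and 0 with the actin covariate, and 1 lower became 0 with the latter. For the mean GH effect, 0 higher became 2 with probe sets averaged and 1 without WT replicate 1 and KO replicate 3 (0 to 1 without single arrays); 1 lower became 3 with median centring and 0 with the actin covariate (1 to 2 without single arrays). Signs turned in 7 values that were called in either fit: with probe sets averaged, Atf4 was at 0.40 for GH in KO (adjusted p = 0.00778, limma) and 0.23 for mean GH (0.0131), Sec62 at 0.26 for GH in WT and Farsa at 0.37 for GH in KO; without _x_at and _s_at probe sets, Sec62 was at 0.15 for GH in WT and Wars at -0.0674 for GH in KO; with the actin covariate, Bak1 was at 0.15 for GH in KO. Among the 10 genes, 96 of 1713 values turned sign while called in neither fit, such as mean GH for Xbp1 (-0.101) and Herpud1 (-0.015) with median centring. The Atf4 values include the probe sets described above; the cause of the others was not tested. Signal over background limits the dim probe sets, and 3 arrays per group limit all of them.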
